A study of Homo sapiens with 12 samples.

Results

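Immediate early genes are transcribed within minutes of a stimulus, without new protein synthesis, and many of their RNAs are short-lived. The 10 genes described here were chosen by name, with no use of a measured value, although earlier results of these data were known. The set holds the AP-1 subunits FOS, FOSB, FOSL2, JUN, JUNB and JUND, the zinc-finger transcription factors EGR1 and EGR3, and the immediate early genes IER2 and DUSP1. These genes are 10 of 63677 gene identifiers counted in each sample, of which 55665 have a symbol in the annotation. FOS proteins cannot bind DNA alone and pair with a JUN protein to form AP-1, whereas JUN proteins also pair with each other. Growth factor signals reach FOS and EGR1 through MAP kinases and the serum response factor, and DUSP1 is a phosphatase that switches MAP kinases off again.

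RNA was measured in LNCaP, an established prostate cancer cell line that grows in response to androgen. A TALEN (an engineered nuclease) aimed at the CTG start codon of Bag-1L, the longest protein made from BAG1, gave the Bag-1L KO line, for which single clones were isolated by dilution after drug selection, and the control line was a vector control. Both lines were grown in full medium (FM), or kept without hormone for 72 h and then given vehicle (EtOH) or 10 nM dihydrotestosterone (DHT, an androgen) for 16 h. Each of the 6 groups has 2 replicates, 12 samples in all, and with 1 line per genotype the loss of Bag-1L and other differences between the lines cannot be told apart. Nothing in the labels says that replicates came from separate cultures, so p-values measure only the spread between these samples, which may be technical.

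The targeted gene was checked first. In normalized read counts (reads divided by the size factor of the sample), BAG1 stood at 1701.5 and 2702.6 in control EtOH against 1191.4 and 1103.0 in KO EtOH, and at 2198.9 and 2630.7 in DHT-treated control against 1075.5 and 1113.6 in KO DHT. It was 2117.0 and 1967.7 in control FM and 1452.2 and 1576.1 in KO FM. Both KO samples were below both control samples of BAG1 in every condition, although counts per gene cannot separate Bag-1L from the shorter proteins of the same RNA. The log2 fold change was -0.94 in EtOH (DESeq2 adjusted p = 6.35e-06) and -1.14 in DHT (adjusted p = 7.71e-09). In FM it was only -0.43 (adjusted p = 0.0682). Gene counts per sample summed to between 20826843 and 30354666, and a floor of 3 reads was worth 0.0988 to 0.144 CPM, depending on the sample. The widest gap between replicates was in control EtOH, where the median gene of 11374 differed by 0.238 on the log2 scale, and the next was in control DHT, at 0.172. Among luminal prostate markers, KLK3, which encodes prostate-specific antigen, had between 5353.8 and 23182.0 normalized counts and the keratin gene KRT18 between 3303.2 and 13165.7. Markers of basal epithelium summed to between 0.104 and 1.64 TPM (a level corrected for transcript length and scaled to the same total in each sample), immune markers to between 0.0 and 0.16 TPM, endothelial markers to between 1.19 and 2.38 TPM (2 of 3 analysed), and fibroblast markers, nearly all COL1A1, to between 5.65 and 13.8 TPM. In bulk RNA, fewer expressing cells and less RNA per cell cannot be told apart.

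In these cells the JUN genes were far more abundant than FOS and EGR1. JUND had a median of 54.2 TPM over the 12 samples, JUN 25.5 TPM, IER2 24.6 TPM, DUSP1 14.8 TPM and FOSL2 11.5 TPM, and JUNB lay between 6.1 and 19.7 TPM. FOSB, FOS and EGR1 were scarce, at medians of 1.44, 1.34 and 0.623 TPM. EGR1 was covered by only 12 to 37 reads in a sample and FOS by 20 to 83, which limits what can be seen of them. EGR3 (ENSG00000179388) had between 0 and 5 reads in every sample, at or near the floor, so no fold change is given for it.

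The sequences before the RefSeq starts of the genes are shown because they hold the letters of sites for which the family is known. The FOSL2 stretch lies inside the gene as annotated here, since that annotation starts FOSL2 410 bases farther upstream than RefSeq does. They are RefSeq promoter windows on GRCh37, searched over the 250 bases before the start on both strands, and 9 of the 10 genes have such a window. The capitals mark the cyclic AMP response element (CRE) TGACGTCA, its core TGACG, the TATAAA box, the JUN site TGACATCA or the CArG box bound by serum response factor.
FOS, chr14:75745427-75745506, plus strand: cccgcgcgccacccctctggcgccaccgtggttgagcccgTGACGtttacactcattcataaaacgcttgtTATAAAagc
JUNB, chr19:12902123-12902202, plus strand: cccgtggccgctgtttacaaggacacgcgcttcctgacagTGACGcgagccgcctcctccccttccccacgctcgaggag
JUN, chr1:59249746-59249825, minus strand: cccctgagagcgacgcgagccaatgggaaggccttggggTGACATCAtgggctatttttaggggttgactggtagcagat
JUND, chr19:18392593-18392672, minus strand: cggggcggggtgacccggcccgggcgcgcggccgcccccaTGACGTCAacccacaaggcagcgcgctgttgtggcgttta
DUSP1, chr5:172198284-172198363, minus strand: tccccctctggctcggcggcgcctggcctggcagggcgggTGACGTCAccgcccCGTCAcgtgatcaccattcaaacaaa
EGR1, chr5:137801038-137801117, plus strand: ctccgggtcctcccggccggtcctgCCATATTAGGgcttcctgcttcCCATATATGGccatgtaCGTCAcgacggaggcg
FOSL2, chr2:28615646-28615675, plus strand: tggagtctggggtTGACGtgagtgaatcca

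The core TGACG, or CGTCA on the other strand, was present in 9 of 9 windows, compared with 21.7% of 27305 promoters. The full CRE, which contains the core, was present in JUND and DUSP1 and in 1.77% of all promoters. In the bases searched, the CArG box was found in EGR1 only, with 2 matches, and in 1.14% of promoters. Bases farther upstream were not searched, so a CArG box there, before FOS or another gene, would have been missed. A TATAAA box lay before FOS, FOSB, JUNB and DUSP1 (11.1% of promoters), and TGACATCA lay before JUN (2.45%). The AP-1 site TGANTCA was in none of the 9 windows and in 6.6% of promoters. These are letters in short windows, and binding was not measured here.

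**Figure D1:**
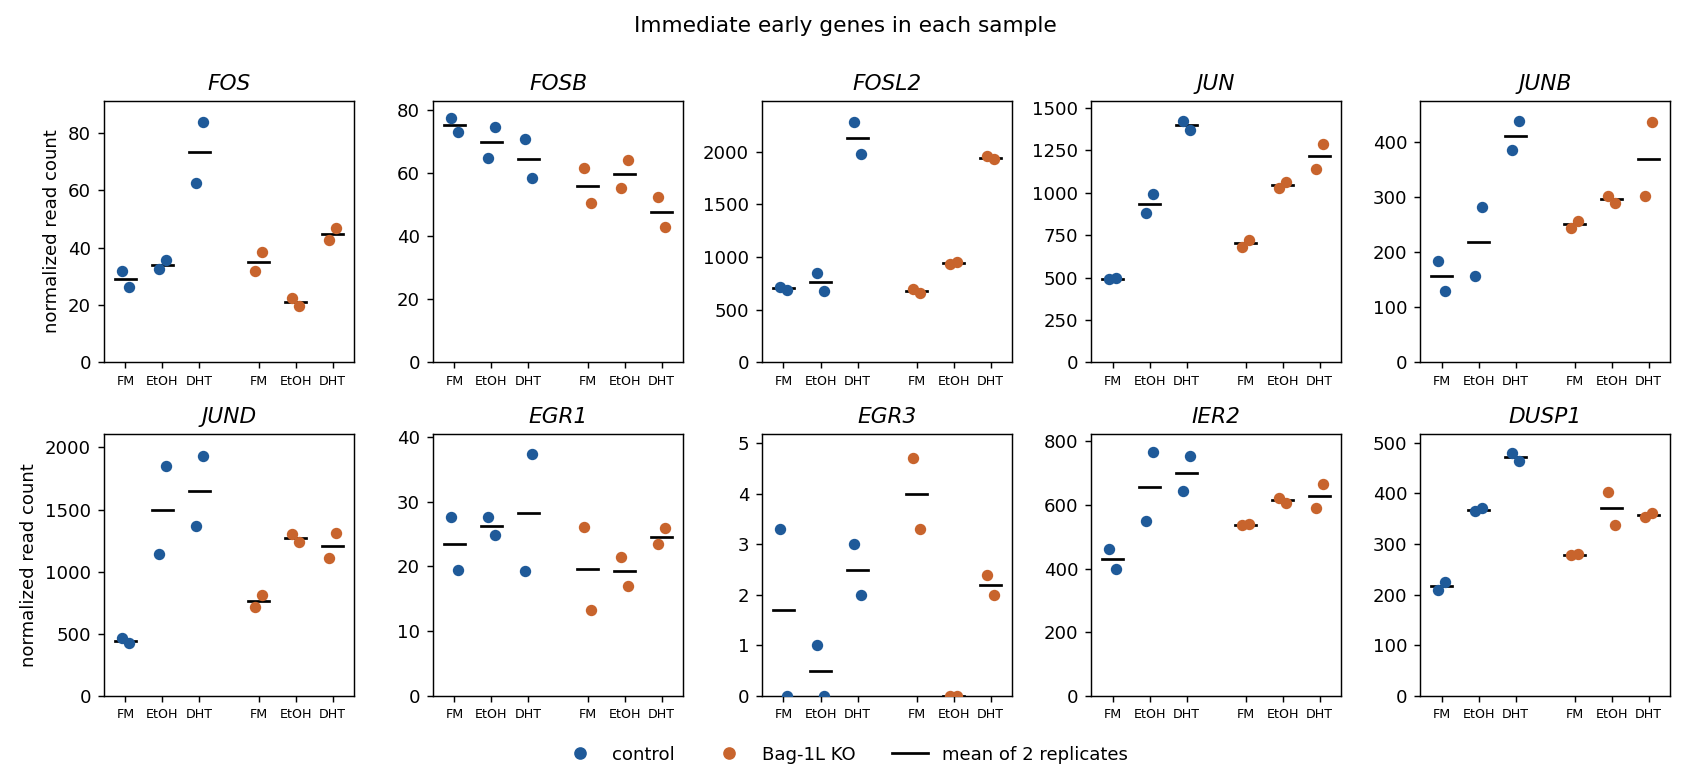
Normalized read count (vertical axis, from 0, a scale per gene) of the 10 genes in full medium (FM), vehicle (EtOH) and DHT, in control (blue) and Bag-1L KO (orange). Points are single samples and bars are means of 2 replicates. FOSL2 is between 1928.3 and 2284.7 in the DHT samples and at most 956.1 in the others.

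To ask how these genes stood after 16 h of androgen, DHT was compared with EtOH in each line. No earlier time was sampled, so a brief change in the first minutes or hours of DHT could not be seen. FOSL2, FOS and JUNB rose in control, and FOSL2 and FOS rose in KO. In control 3 of 9 genes tested passed as higher and 0 as lower, compared with 6.04% higher and 5.37% lower among all genes tested (DESeq2, adjusted p at most 0.05 and at least 1.5-fold). In KO 2 of 9 passed as higher and 0 as lower, against 4.43% and 3.24% of all genes. The median log2 fold change of the genes was 0.358 in control and 0.215 in KO, and over all genes tested it was -0.0174 and -0.0139.

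FOSL2 (ENSG00000075426, chr2:28615315-28640184, plus strand), which encodes the FOS-family protein FRA-2, had normalized counts of 845.0 and 676.4 in control EtOH, and of 2284.7 and 1976.1 once control cells had DHT. In KO it had 937.0 and 956.1 in EtOH and 1958.1 and 1928.3 in DHT. The DHT and EtOH samples did not overlap in either line. The log2 fold change was 1.49 (SE 0.13, DESeq2 adjusted p = 8.18e-28) in control and 1.04 (SE 0.13, adjusted p = 9.05e-14) in KO. The difference between the lines was -0.45 on the log2 scale (95% interval -0.81 to -0.09), which did not pass after adjustment over all genes (DESeq2 adjusted p = 0.774). Without control EtOH replicate 1, the higher of its pair, the difference was -0.62 with an adjusted p of 0.0467.

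FOS (ENSG00000170345, chr14:75745529-75748933, plus strand), the founding member of the family, rose with DHT from a low level. Its normalized counts in control were 32.4 and 35.8 in EtOH and 62.6 and 83.7 in DHT, and in KO they were 22.6 and 19.8 in EtOH and 42.8 and 46.8 in DHT. The groups did not overlap within a line. The log2 fold changes were close in size, 1.10 (SE 0.36, DESeq2 adjusted p = 0.0135) in control and 1.08 (SE 0.39, adjusted p = 0.0444) in KO, and the interval of their difference was wide (-1.06 to 1.02). The call in KO was lost when any 1 of the 4 KO samples was left out, with adjusted p between 0.145 and 0.335. The call in control was lost without control EtOH replicate 1 (adjusted p = 0.0875) or control DHT replicate 2 (adjusted p = 0.209). With only the groups compared in the fit, both calls were lost (adjusted p = 0.0889 in control and 0.0744 in KO).

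FOSB (ENSG00000125740, chr19:45971253-45978437, plus strand), whose protein also pairs with JUN, did not pass in any comparison. Its normalized counts stayed between 42.8 and 77.3 across all samples. ERCC1 overlaps FOSB on the opposite strand over 7185 bases and had 618 to 1316 reads, and the strand setting of the counting is not given in the sources used here.

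Because FOSL2 rose while FOSB did not, the make-up of the FOS family changed between conditions. The summed level of FOS, FOSB, FOSL1 and FOSL2 was 12.8 ± 2.94 TPM (SD, n = 2) in control EtOH and 28.7 ± 4.29 TPM in control DHT. In KO it was 15.2 ± 0.358 TPM in EtOH and 28.5 ± 1.75 TPM in DHT. FOSL2 made up 71.7% ± 4.33 of this sum in control EtOH and 84.0% ± 2.36 in control DHT. In KO its share was 80.8% ± 0.97 in EtOH and 87.1% ± 0.319 in DHT. FOSL2 was thus the main FOS-family RNA in each group, also in FM, where it held 68.6% in both lines.

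**Figure D2:**
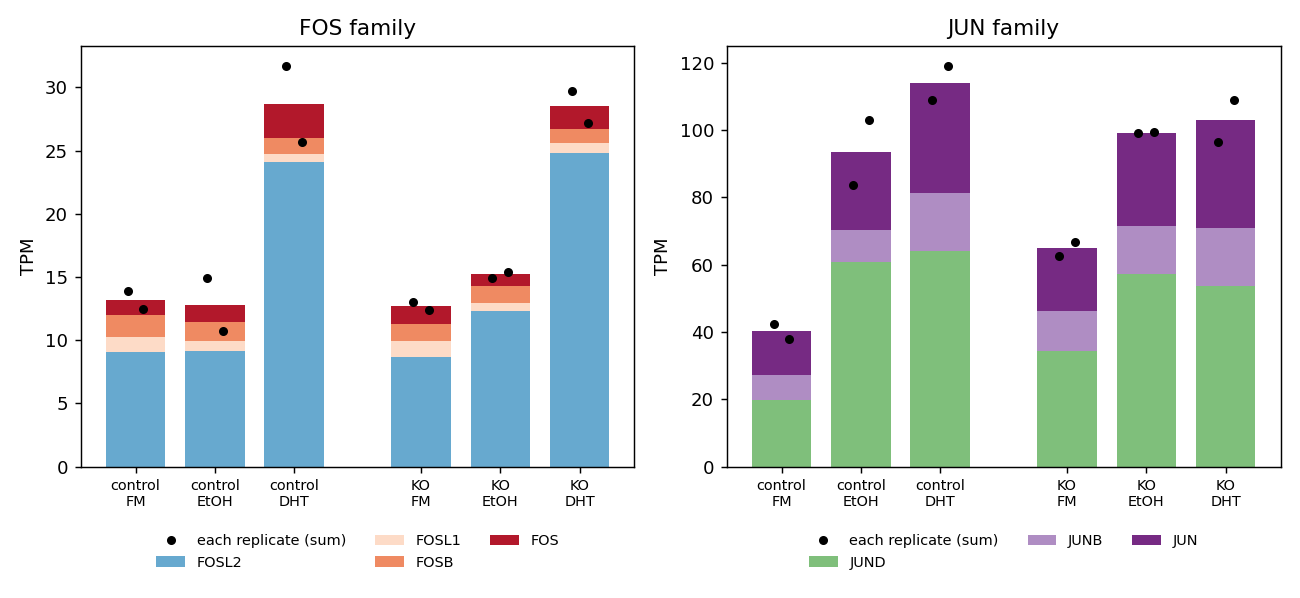
Summed TPM (vertical axis, from 0) of the FOS family (left) and the JUN family (right) in each group, split by gene as means of 2 replicates, with points for the sum in each replicate. The FOS family stands at 28.7 and 28.5 TPM in DHT against 12.8 and 15.2 in EtOH, most of it FOSL2, and the JUN family is lowest in control FM at 40.3 TPM.

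Among the JUN genes, JUNB (ENSG00000171223, chr19:12902300-12904129, plus strand), often an antagonist of JUN at AP-1 sites, had 157.0 and 281.5 normalized counts in control EtOH and 386.7 and 437.8 in control DHT. In KO it had 302.9 and 289.9 in EtOH and 301.7 and 436.3 in DHT. The control groups were separate, while in KO one DHT sample lay at the EtOH level. JUNB rose in control by 0.91 on the log2 scale (SE 0.25, DESeq2 adjusted p = 0.00245), and in KO the log2 fold change was 0.31 (adjusted p = 0.527). The difference of -0.60 (95% interval -1.29 to 0.09) did not pass, and the call in control rested on the EtOH replicates. It was lost without control EtOH replicate 1 (log2 0.55, adjusted p = 0.0693), and without replicate 2 the difference was -1.08 with an adjusted p of 0.0412. HOOK2 overlaps all 1830 bases of JUNB on the opposite strand, with 926 to 2246 reads.

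JUN (ENSG00000177606, chr1:59242517-59249720, minus strand), the partner for which AP-1 is best known, had 883.1 and 990.7 normalized counts in control EtOH and 1424.5 and 1372.9 in control DHT. In KO it had 1027.5 and 1065.3 in EtOH and 1143.2 and 1287.9 in DHT. DHT samples were above EtOH samples in both lines. The log2 fold change in control was 0.58 (SE 0.12, DESeq2 adjusted p = 1.74e-05), a 1.49-fold change just under the 1.5-fold minimum. In control it passed with only the groups compared in the fit (0.59, adjusted p = 0.0374), and ran from 0.50 to 0.66 with a replicate left out. In KO the log2 fold change was 0.21 (adjusted p = 0.276). The difference between the lines was -0.36 (95% interval -0.69 to -0.04, adjusted p = 0.97).

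JUND (ENSG00000130522, chr19:18390504-18392432, minus strand), the JUN protein linked with slow growth, had 1140.0 and 1851.2 normalized counts in control EtOH and 1367.0 and 1932.7 in control DHT. In KO it had 1305.5 and 1240.4 in EtOH and 1107.7 and 1308.8 in DHT. The DHT and EtOH samples overlapped in both lines, and in control the replicates lay farther apart than the group means.

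Of the genes outside AP-1, DUSP1 (ENSG00000120129, chr5:172195099-172198198, minus strand) had 365.4 and 371.0 normalized counts in control EtOH and 479.5 and 464.0 in control DHT, against 403.5 and 337.9 and then 353.4 and 361.6 in KO. The log2 fold change was 0.36 in control (SE 0.15, DESeq2 adjusted p = 0.0692) and -0.05 in KO (adjusted p = 0.917), and neither passed. IER2 (ENSG00000160888, chr19:13261225-13265725, plus strand), a nuclear protein of the immediate early class, had 550.0 and 765.9 in control EtOH and 644.1 and 754.5 in control DHT, while KO samples had 622.8 and 606.1 in EtOH and 589.8 and 666.3 in DHT. EGR1 (ENSG00000120738, chr5:137801168-137804992, plus strand), a zinc-finger factor induced by growth signals, had 27.6 and 24.9 in control EtOH and 19.2 and 37.3 in control DHT, while KO samples had 21.5 and 16.9 in EtOH and 23.4 and 25.9 in DHT. IER2 overlapped between EtOH and DHT in both lines and EGR1 in control, and neither passed the test.

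The DHT responses of the lines were then compared directly. By DESeq2 0 of 8 genes passed, and 0 by edgeR, where 0.408% of all genes tested passed by DESeq2. That share rests on 55 genes, and leaving out 1 sample gave between 16 (without KO EtOH replicate 2) and 155 (without control EtOH replicate 2). FOSL2 and JUN had an unadjusted p under 0.05. The difference for FOS was -0.02 on the log2 scale, and its sign turned with TMM scaling (0.01). A difference that misses the threshold does not show that the lines respond alike.

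**Figure D3:**
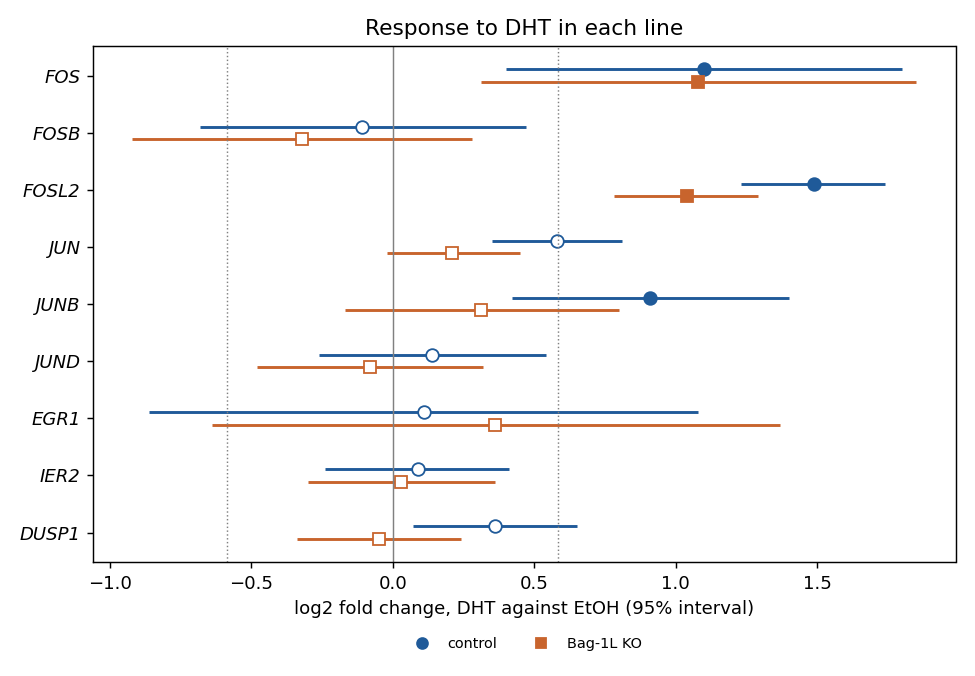
Log2 fold change of DHT against EtOH (horizontal axis) for 9 genes in control (blue circles) and Bag-1L KO (orange squares), with 95% intervals from the DESeq2 fit. Filled symbols passed the test, dotted lines mark a 1.5-fold change, and FOSL2 (1.49 and 1.04) has intervals farthest from 0.

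KO was then compared with control within each condition. None of 9 genes passed in EtOH (5.11% of all genes did), in DHT (7.98%) or over the mean of the 3 conditions (7.55%), by DESeq2, and edgeR also gave 0 in each. At an unadjusted p under 0.05, FOSL2 was past it in EtOH, FOS, JUND and DUSP1 in DHT, and FOSB, JUN and JUNB over the mean. FOS in DHT had a log2 fold change of -0.71 (adjusted p = 0.15), with both KO samples below both control samples. DUSP1 had an adjusted p of 0.0411 in DHT, but its log2 fold change of -0.40 was below the fold minimum. The KO and control samples of DUSP1 did not overlap in DHT. JUND in DHT had a log2 fold change of -0.45 (adjusted p = 0.118) and passed without control DHT replicate 1 (-0.68, adjusted p = 0.019), and JUNB in EtOH (0.44, adjusted p = 0.336) passed without control EtOH replicate 2 (0.92, adjusted p = 0.00492).

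In FM 2 of 9 genes passed as higher in KO and 0 as lower, beside 5.41% and 2.6% of all genes. JUND had 462.7 and 424.1 normalized counts in control FM and 716.3 and 812.2 in KO FM. Its log2 fold change was 0.79 (SE 0.21, DESeq2 adjusted p = 0.00283). JUNB had 184.4 and 130.3 in control FM and 244.4 and 257.6 in KO FM, with a log2 fold change of 0.68 (SE 0.26, adjusted p = 0.0482). Neither pair of groups overlapped. JUN, with 493.6 and 496.1 in control FM and 681.8 and 723.4 in KO FM, had an adjusted p of 0.0012, but its log2 fold change of 0.50 was below the minimum.

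The GC content of the transcripts moved with this comparison. Over 11172 genes, the log2 fold change of KO against control in FM had a Spearman correlation of 0.57 with transcript GC content, a description across genes of the same 4 libraries. Replicates of the same group also differed with GC content. The correlation for replicate 2 minus replicate 1 was -0.58 in control FM and 0.22 in KO FM. In the other groups it was 0.37 (control EtOH), -0.01 (KO EtOH), -0.17 (control DHT) and 0.72 (KO DHT). JUND has the highest GC content of the 10 genes at 69.93%, followed by JUNB at 64.86% and IER2 at 63.03%. When the part of each sample's counts that followed GC content was removed, JUND had a log2 fold change of 0.21 (adjusted p = 0.395) and JUNB 0.24 (adjusted p = 0.537), and neither passed. Such a correction also removes any biological change that follows GC content. The call for JUND was also lost without control FM replicate 2 (0.72, adjusted p = 0.0966) or KO FM replicate 2 (0.69, adjusted p = 0.111), and that for JUNB with edgeR (0.70, adjusted p = 0.0653) and without control FM replicate 2 or either KO FM replicate (adjusted p between 0.166 and 0.484).

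**Figure D4:**
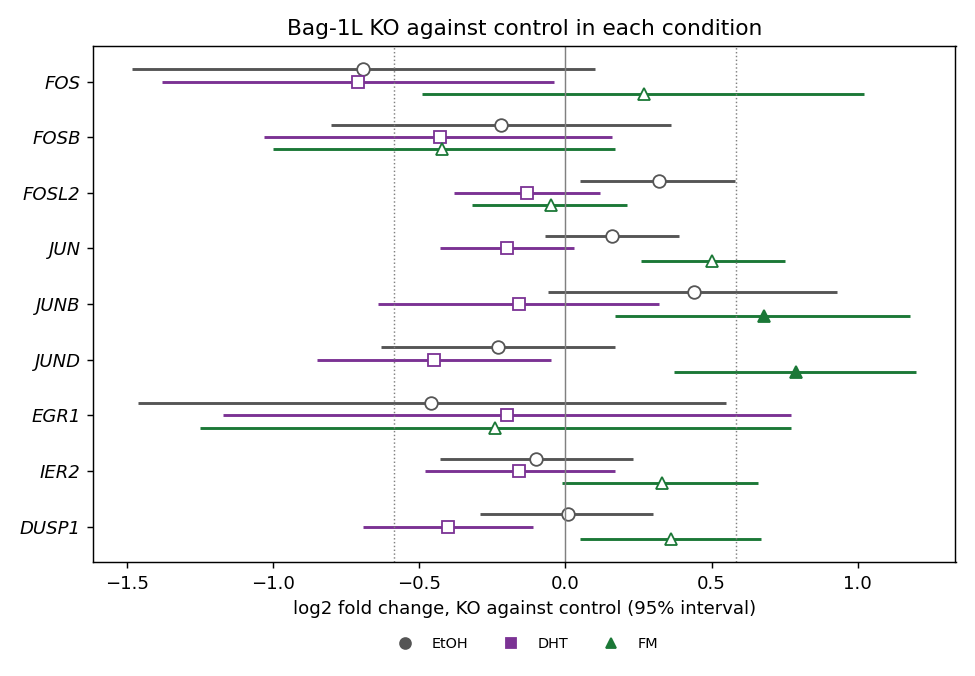
Log2 fold change of Bag-1L KO against control (horizontal axis) for 9 genes in EtOH (circles), DHT (squares) and FM (triangles), with 95% intervals from the DESeq2 fit. Filled symbols passed the test and dotted lines mark a 1.5-fold change. JUND (0.79) and JUNB (0.68) in FM are the filled symbols.

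Full medium was compared with hormone starvation in each line. JUND, JUN, DUSP1 and IER2 were lower in FM in control, and JUND was lower in KO. In control 4 of 9 genes passed as lower and 0 as higher, beside 11.5% lower and 9.81% higher of all genes tested. In KO 1 of 9 passed as lower and 0 as higher, beside 9.68% and 9.61%. The median log2 fold change of the genes was -0.48 in control and -0.24 in KO, against -0.00932 and -0.00674 over all genes. Medium, serum and the 16 h of vehicle differ together between FM and EtOH and cannot be told apart.

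JUND fell in control FM, from the EtOH values given above to 462.7 and 424.1 normalized counts, and in KO FM to 716.3 and 812.2. Its log2 fold change was -1.75 (SE 0.21, DESeq2 adjusted p = 1.31e-15) in control and -0.74 (adjusted p = 0.00185) in KO. JUN fell in control by 0.92 on the log2 scale (adjusted p = 3.47e-12), and in KO it had a log2 fold change of -0.58 (adjusted p = 1.81e-05), a 1.49-fold change under the minimum. DUSP1 had 209.8 and 224.7 normalized counts in control FM and 277.9 and 279.5 in KO FM. It fell in control by 0.76 (adjusted p = 1.02e-05), and in KO its log2 fold change of -0.41 (adjusted p = 0.0269) was under the fold minimum.

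IER2 had 460.5 and 398.8 normalized counts in control FM and 538.2 and 539.2 in KO FM. It fell in control by 0.62 on the log2 scale (DESeq2 adjusted p = 0.00145), a call lost without control FM replicate 2 (adjusted p = 0.0685) or control EtOH replicate 2 (adjusted p = 0.0883). JUNB in control had a log2 fold change of -0.48 (adjusted p = 0.144) and passed only without control EtOH replicate 1 (-0.84, adjusted p = 0.00221). FOSL2 had 715.6 and 690.6 normalized counts in control FM and 694.9 and 659.8 in KO FM, and its log2 fold change in KO of -0.48 (adjusted p = 0.00171) was under the fold minimum. FOS had 32.0 and 26.3 normalized counts in control FM and 31.7 and 38.4 in KO FM, and EGR1 27.6 and 19.5 and then 26.1 and 13.2.

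The summed level of the JUN family was 40.3 ± 3.21 TPM (SD, n = 2) in control FM and 64.8 ± 2.96 TPM in KO FM. In EtOH it was 93.6 ± 14.0 TPM in control and 99.2 ± 0.321 TPM in KO. JUND held between 49.2% and 65.0% of it on average in each group.

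GC content moved with the FM comparison in control too, where the Spearman correlation with the log2 fold change was -0.40 over 11172 genes, against -0.09 in KO. With the GC correction, JUND in control stayed past the test at -1.05 (adjusted p = 1.23e-12), whereas IER2 came to -0.23 (adjusted p = 0.164). In KO, JUND came to -0.56, under the fold minimum, and JUN to -0.63, past it. JUN and DUSP1, with GC contents of 56.13% and 55.24%, kept their calls in control.

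**Figure D5:**
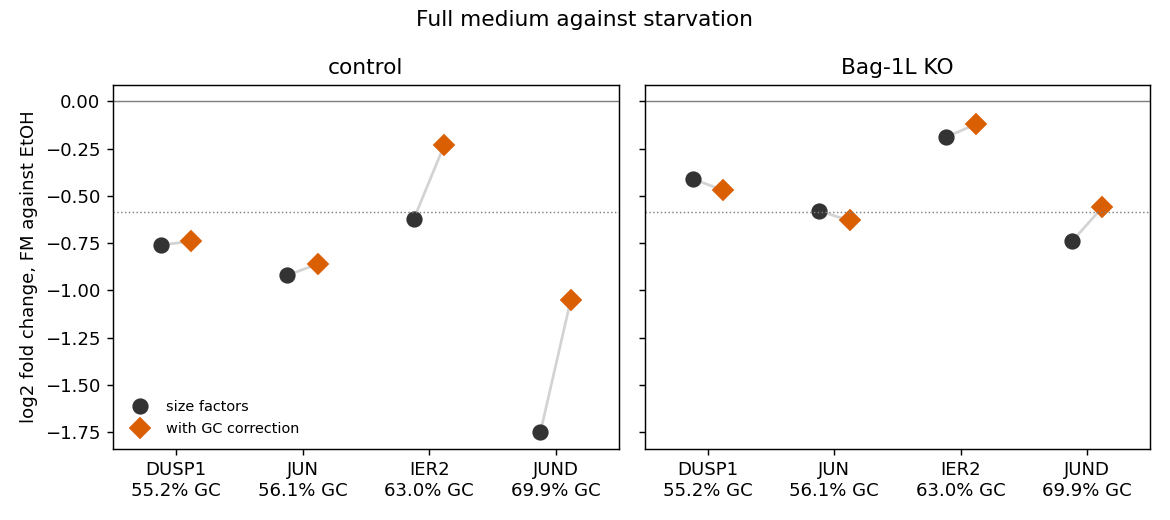
Log2 fold change of FM against EtOH (vertical axis) in control and Bag-1L KO for 4 genes ordered by transcript GC content, with size factors (circles) and with the added GC correction (diamonds). The dotted line marks a 1.5-fold fall. JUND moves from -1.75 to -1.05 and IER2 from -0.62 to -0.23 in control.

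When the FM responses of the lines were compared directly, 1 of 7 genes passed, beside 1.39% of all genes tested. That share rests on 180 genes, and leaving out 1 sample gave between 49 (without control FM replicate 2) and 2124 (without control EtOH replicate 1). This was JUND, with a difference of 1.02 on the log2 scale (SE 0.29, 95% interval 0.44 to 1.59, DESeq2 adjusted p = 0.0383), the fall in FM being smaller in KO. The call was fragile. Of the 8 samples compared, leaving out any 1 except control EtOH replicate 1 lost it, with differences between 0.63 (without control EtOH replicate 2) and 1.10 and adjusted p between 0.0999 and 0.459. It was also lost with edgeR (adjusted p = 0.131) and with the GC correction (0.49, adjusted p = 0.24).

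The other genes of the pathway were read from lists of known members, chosen with earlier results of these data known. Their values are from the fit with size factors, without the GC correction. KO against control in FM (0.57) and FM against EtOH in control (-0.40) moved with GC content across genes. List calls in those comparisons carry the same limit. Among 6 other AP-1 subunits tested, ATF3, a stress-induced AP-1 partner, rose with DHT by 1.15 on the log2 scale in control (DESeq2 adjusted p = 9.9e-15) and by 0.71 in KO (adjusted p = 1.94e-05), and 0 fell. In control 6.04% of all genes tested rose and 5.37% fell, and in KO 4.43% and 3.24%. ATF3 had 1095.3 and 834.6 normalized counts in control EtOH and 2210.0 and 2068.9 in control DHT, against 627.3 and 619.2 and then 948.0 and 1088.7 in KO. KO samples were below control samples in both conditions. ATF3 passed as lower in KO, at -0.63 in EtOH and -1.07 in DHT, and BATF3 (-1.44) and JDP2 (-0.78) also passed as lower in DHT. Over the mean of the 3 conditions BATF3 (-0.91) and ATF3 (-0.62) passed as lower. Of all genes, 5.11% passed in either direction in EtOH, 7.98% in DHT and 7.55% over the mean.

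Of 29 other immediate early genes tested, 13 rose and 3 fell with DHT in control, with a median log2 fold change of 0.519, and 7 rose and 3 fell in KO, with a median of 0.22. Over all genes tested 6.04% rose and 5.37% fell in control, and 4.43% and 3.24% in KO. SGK1, a kinase gene known to respond to steroid hormones, had the largest rise, 4.56 in control and 4.13 in KO. ERRFI1, an inhibitor of the EGF receptor, rose by 2.66 and 2.08, and NR4A1, an orphan nuclear receptor, by 2.17 and 1.94. NR4A2, a scarce relative, fell in KO from 24.9 and 25.4 normalized counts to 4.0 and 4.0. KLF4 rose by 1.69 in control. It was the only gene of this list whose DHT response passed as different between the lines (-1.21, DESeq2 adjusted p = 2.89e-06, 26 tested), beside 0.408% of all genes. In DHT 8 of 27 were lower in KO and 1 higher, beside 7.98% of all genes in either direction, among them KLF2 (-1.16), KLF6 (-1.15) and RHOB (-0.82), with NFKBIZ higher (1.23). In EtOH NFKBIZ alone was higher (1.27), beside 5.11% of all genes in either direction. In FM 0 of 27 passed, where 5.41% of all genes were higher and 2.6% lower. Over the mean of the 3 conditions NFKBIZ was higher (0.84) and KLF6 lower (-0.64).

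In FM against EtOH, 3 of the 29 were higher and 7 lower in control, where 9.81% and 11.5% of all genes were, and 5 and 5 in KO, where 9.61% and 9.68% were. SGK1 (2.29 and 2.25) and ERRFI1 (1.54 and 1.69) were higher in FM in both lines. KLF2 was lower in control (-1.62), and NFKBIZ was lower in KO (-1.59). IER5L also passed as lower in control, with 0.0 and 1.9 normalized counts in FM against 20.9 and 33.8 in EtOH, and NR4A2 in KO, with 2.8 and 2.2 against 24.9 and 25.4.

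Of 9 other MAP kinase phosphatases, DUSP10 (0.67) and DUSP8 (0.64) rose and DUSP5 (-0.86) fell with DHT in control, and DUSP5 fell in KO (-1.42). Among all genes 6.04% rose and 5.37% fell in control, and 4.43% and 3.24% in KO. DUSP5 was lower in FM in both lines, by -2.63 and -3.45, and DUSP2 was higher, by 0.91 and 1.17. In FM 2 were higher and 2 lower in control (also DUSP4 at 0.72 and DUSP8 at -0.98) and 4 higher and 2 lower in KO, DUSP9 (1.10) and DUSP4 (0.95) among them. The shares of all genes were 9.81% higher and 11.5% lower in control, and 9.61% and 9.68% in KO. KO against control gave DUSP4 lower in EtOH (-0.63) and DUSP8 higher in FM (0.92). Of all genes, 5.11% passed in either direction in EtOH and 5.41% as higher in FM.

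Of 7 upstream factors, ELK4, an ETS partner of the serum response factor, rose with DHT by 1.41 in control and 1.52 in KO and was higher in FM by 1.35 and 1.19. ELK3 fell with DHT in control (-0.76) and was lower in KO in EtOH (-0.65) and FM (-0.75). Of 8 upstream kinases, only MAPK10, a JNK gene, passed. It was higher in KO in EtOH (2.06), DHT (1.46) and FM (1.88) and over their mean (1.80), from 10.9 to 30.3 normalized counts in control to 49.3 to 86.7 in KO. Among 7 ERK feedback genes tested, SPRY2 rose with DHT (1.08 and 1.46) and in FM (0.91 and 1.42). SPRED2 rose with DHT (0.69 and 0.66) and in control FM (0.69), and SPRY1 fell with DHT in control (-1.04) and was lower in KO in EtOH (-0.91). Of the EGR list only NAB1, an EGR corepressor, passed: it fell with DHT in control (-0.75) and KO (-0.89), and was lower in KO FM than in control FM (-0.59) and than in KO EtOH (-0.72). All these calls are from DESeq2. With DHT 6.04% of all genes rose and 5.37% fell in control, and 4.43% and 3.24% in KO. For FM against EtOH 9.81% were higher and 11.5% lower in control, and 9.61% and 9.68% in KO. For KO against control 5.11% passed in EtOH, 7.98% in DHT and 7.55% over the mean, in either direction. In FM 5.41% were higher in KO and 2.6% lower.

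Heat shock genes, which can move with handling, were read beside them. HSPH1 was higher in DHT in control (0.69) and in FM in both lines (0.88 and 0.66). HSPA1B was lower in control FM (-0.59), and the other 3 of the 5 passed in none of these. With DHT 6.04% of all genes rose in control. For FM 9.81% were higher and 11.5% lower in control, and 9.61% higher in KO. The group means of all 5 were nevertheless higher in DHT than in EtOH in both lines. Their median log2 fold change with DHT was 0.525 in control and 0.418 in KO, against 0.358 and 0.215 for the genes described here. COL1A1 was lower in FM in both lines (-0.81 and -0.86), and the basal marker KRT14, at no more than trace level, was higher (2.35 and 3.77). Mitochondrial genes took 1.94% to 3.10% of counts in the FM samples and 3.56% to 4.80% in the others. The part of these in the results was not tested.

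The genes fell into patterns that are given as descriptions over the 12 samples, which share libraries and conditions. JUND and IER2 had the closest pattern among the 10, with a Pearson correlation of 0.97 on log2 counts, and JUN and DUSP1 had 0.95. These counts were not corrected for GC content, which is high in both JUND (69.93%) and IER2 (63.03%). The part of GC content in the correlations was not tested. FOS was nearer to FOSL2 (0.70) than to JUND (0.43), and FOSB ran against JUNB (-0.53). Outside the 10, the genes most like JUN were SEPTIN5, GDF15 and MIDN (0.98 each), and those most like FOS were TRIM11, TSPYL2 and NSDHL (0.96 each). EGR1 had no gene above 0.78, reached by ZNF57, followed by GPRASP2 (0.74) and SEPTIN7P14 (0.73).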

How the data were processed

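The authors sequenced TruSeq stranded mRNA libraries of the 12 samples on a HiSeq1500. Per the methods and the submitters' processing notes, reads were processed with CASAVA 1.7, mapped to GRCh37 with TopHat 2.0.11 and counted per Ensembl gene with HTSeq 0.5.3p3. The values deposited by the authors are raw read counts per gene for each sample, not normalized. The Ensembl release and the strand setting are not given in the sources used here. Reads with several alignments (15.9% to 20.0% of the tallied reads) and tallies naming no gene were left out of all tests.

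The genes and lists were chosen with earlier results of these data known. All 12 samples were fitted together with DESeq2 1.42.0 under R 4.3.3, the tool the study names, using 1 coefficient for each group, median-of-ratios size factors, genes with at least 10 counts in all, Wald tests, an adjusted p of at most 0.05 and a fold change of at least 1.5. Benjamini-Hochberg adjustment ran over all genes tested in a comparison, and DESeq2 gives none to genes of very low count. Intervals are at 95%. The scripts were tested on simulated data. Fold changes are unshrunken.

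TPM was computed from the counts and the canonical transcript length in GENCODE v44 on GRCh37, also the source of positions. The 10 genes are named with their values in each sample. From each list the genes that passed are named where 5 or fewer did, and otherwise the 4 with the largest fold change. For FOS, EGR1 and JUN the 3 genes of most like pattern whose mean normalized count reached 100 are named. For some list genes not every comparison is written out, and some results are not reported here.

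Alternatives were edgeR 4.0.16 (quasi-likelihood, TMM), TMM size factors in DESeq2, no filter, at least 10 counts in every sample, only the groups compared, the replicate number as a block and each replicate left out. A GC correction was added after seeing the data: for each sample the median log2 deviation from the gene mean, in 40 bins of transcript GC content, was removed. Intervals and floors cover counting error and the spread between samples only.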

Additional observations from a re-analysis of the deposited data

Results flagged for a closer look

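The difference between the lines passed the test for KLF4 in the DHT response and for JUND and NFKBIZ in the FM comparison. Of all genes tested, 0.408% passed for DHT and 1.39% for FM. FOS moved in opposite directions in the normalized counts of the lines without passing a test. KLF4 had a difference in DHT response of -1.21 on the log2 scale (KO minus control, DESeq2 adjusted p = 2.89e-06), with 292.1 and 265.6 normalized counts in control EtOH, 885.4 and 919.9 in control DHT, 401.3 and 418.8 in KO EtOH and 551.8 and 598.6 in KO DHT. JUND had a difference in the FM comparison of 1.02 (adjusted p = 0.0383), a call lost without 7 of the 8 samples in turn. NFKBIZ had a difference in the FM comparison of -1.26 (adjusted p = 0.0341). It had 238.5 and 246.6 normalized counts in KO EtOH and 91.4 and 69.0 in KO FM, against 119.9 and 80.6 and then 78.4 and 81.7 in control. With a replicate left out, the NFKBIZ difference ran from -1.58 to -1.01 and the KLF4 difference from -1.28 to -1.14. FOS was lower in both control FM samples (32.0 and 26.3 normalized counts) than in both control EtOH samples (32.4 and 35.8). The log2 fold change there was -0.23 (DESeq2 adjusted p = 0.702). In TPM this order did not hold, with 1.315 in control FM replicate 1 and 1.242 in control EtOH replicate 2. FOS was higher in both KO FM samples (31.7 and 38.4) than in both KO EtOH samples (22.6 and 19.8), at 0.73 (adjusted p = 0.17). Its difference was 0.96 on the log2 scale (95% interval -0.14 to 2.05), and DESeq2 gave it no adjusted p because of its low count.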

How the results depend on the processing

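Log2 fold changes were recomputed for chosen values of the 10 genes and for list genes that passed, not all of them named here. Of 1802, 1646 kept their direction and their side of the threshold, 134 lost their call, 13 gained one and 9 changed sign. Most lost calls came from leaving out a replicate. The GC correction lost 16 of 155 and only the groups compared 13 of 147, whereas the replicate block lost 3 of 155 and no filter 1 of 155. Samples with the same replicate number did not deviate together in every group. Of 15 correlations between groups, from -0.41 to 0.69, 6 were above 0.1, and these were the 6 pairs among KO FM, control EtOH, control DHT and KO DHT, so the numbers were not taken to pair the samples. With the replicate block, 1 of the genes rather than 2 passed for DHT in KO (FOS had an adjusted p of 0.0573), and the same count of 1 came from only the groups compared, where for DHT in control the count of 3 held JUN in place of FOS. The block changed no other count of the 10 genes. For KO against control in FM the count was 1 with edgeR (JUND, not JUNB) and 0 with the GC correction, where 2 passed before. For FM in KO it was 2 with edgeR (JUND and EGR3, the latter on 0 to 5 reads) and 2 with at least 10 counts in every sample. For the difference in the FM comparison it was 0 with edgeR and 0 with the GC correction. With a replicate left out in turn, the counts ran from 1 to 4 for DHT in control, 1 to 1 for DHT in KO, 0 to 1 for the difference in DHT response, 0 to 1 for KO in EtOH and in DHT, 0 to 2 for KO in FM, 1 to 2 for FM in KO, 3 to 5 for FM in control and 0 to 2 for the difference in the FM comparison. The lone remaining sample is then assumed to vary like the other groups.

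Signs changed for small values. The FOS difference in DHT response was 0.01 with edgeR, 0.01 with TMM size factors and 0.02 with the GC correction, and ran from -0.21 to 0.21 with a replicate left out. DUSP1 for DHT in KO ran from -0.17 to 0.08, the latter without KO EtOH replicate 1. IER2 for KO in FM was -0.03 with the GC correction. The cause of these changes was not tested. Depth limits FOS, EGR1 and EGR3 most, at 20 to 83, 12 to 37 and 0 to 5 reads per sample.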
